A study of Mus musculus with 5 samples.

Results

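Itgb1, the β1 integrin subunit, and 8 α subunits that pair with it (Itga1, Itga2, Itga3, Itga5, Itga6, Itga7, Itga8 and Itga9) were followed through the cells of the adult mouse lung. These 9 genes of the 31053 counted were taken by their symbols, as known partners of β1, and all 9 were found in the count tables. The data were droplet single-cell RNA-seq counts (5′ chemistry) of lung cells sorted as CD45 negative, Ter119 negative and viable, in 5 libraries, each of 1 condition. Adult mice received a single intratracheal instillation of LPS, a bacterial endotoxin that injures the alveoli, or of PBS. The day 7 libraries were Itgb1 fl/fl with LPS, Itgb1 iKO with LPS and Itgb1 iKO with PBS, and the day 21 libraries, to which EPCAM-positive cells were added before sequencing, were Itgb1 fl/fl with LPS and Itgb1 iKO with LPS.

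In Itgb1 iKO mice, both Itgb1 alleles were floxed and Cre was induced with doxycycline through the Sftpc (SP-C) promoter, so that recombination was directed at type 2 alveolar epithelial (AT2) cells. Itgb1 fl/fl controls were littermates that lacked rtTA and Cre. Both genotypes were given doxycycline and then a period off it before instillation. Cells of individual mice carried antibody hashtags before they were pooled, and 3 hashtags were in use in each library. Each hashtag is taken as 1 mouse and as 1 replicate (n = 3 unless stated), although the sources used here do not give the exact number of mice in each library. Library and condition cannot be told apart. Levels are UMIs of a gene scaled to the total UMIs of the summed cells, as CPM. Each UMI tags the 5′ end of 1 transcript, so that levels of different genes can be set side by side with no correction for length. At day 7 genotype also coincided with sex after LPS, the 3 Itgb1 fl/fl mice having Xist and no Y-linked UMIs and the 3 Itgb1 iKO mice the reverse, and this too cannot be told apart from genotype. The hashtag of mouse 1 of day 21 Itgb1 fl/fl held both Xist (67.1 CPM) and Y-linked UMIs (111 CPM) in endothelial cells, so that whether it is 1 animal cannot be told, and Itgb1 in AT2 cells is also given without it. The other day 21 Itgb1 fl/fl mice were mainly Xist-positive (273 and 294 CPM). Of the day 21 Itgb1 iKO mice, mouse 1 was mainly Xist-positive (211) and mice 2 and 3 mainly Y-positive (124 and 151). Sex was thus not balanced between the genotypes at day 21 either. Pairs of libraries shared 15 to 102 cell barcodes. A PBS-treated Itgb1 fl/fl library was not analysed here, so LPS and PBS were compared in Itgb1 iKO mice.

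Integrins are αβ heterodimers that span the plasma membrane, bind extracellular matrix or other cells, and link to actin through talin, kindlin and other adaptors. β1 has the most partners of the β subunits, and the α subunit sets the ligand: α1 and α2 bind collagens, α3, α6 and α7 bind laminins, α5 and α8 bind ligands with an RGD motif such as fibronectin and nephronectin, and α9 binds tenascin, osteopontin and other ligands. The β1 chain is needed for these α chains to reach the cell surface.

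Counts passed in 8330 cells (Itgb1 fl/fl LPS), 7240 cells (Itgb1 iKO LPS) and 8671 cells (Itgb1 iKO PBS) at day 7, and in 2224 cells (Itgb1 fl/fl) and 3035 cells (Itgb1 iKO) at day 21, with 8360954 to 29128331 UMIs per library in those cells and a median of 2219 to 5330 UMIs per cell. Cells were gated as AT2 (Sftpc, surfactant protein C, and Epcam), endothelial (Cdh5 and Pecam1) or mesenchymal (Col1a2). In the above order these gates held 119, 355, 26, 176 and 1240 AT2 cells, 6508, 4777, 7976, 1187 and 879 endothelial cells, and 395, 553, 103, 331 and 165 mesenchymal cells. All 6 further AT2 markers (among them Lamp3, Abca3 and Slc34a2) were detected in AT2 cells of every library, at a summed level of 29288 to 33843 CPM. The 5 further endothelial markers summed to 13022 to 16843 CPM in endothelial cells and to 61.2 to 151.9 in AT2 cells. The 5 immune markers summed to 25696 to 33217 CPM in AT2 cells, with 2 to 4 of 5 detected. Nearly all of this was Lyz2 and Cd74, which AT2 cells are also known to express, while Ptprc, which encodes CD45, was at 0 in AT2 cells of every library and Cd52 and Tyrobp had at most 1 UMI.

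The 9 genes lie on 7 chromosomes (GRCm38, GENCODE vM21 annotation). Itgb1 is at chr8:128685654-128733200 on the plus strand, with up to 16 exons. Itga1 (chr13:114953096-115101964) and Itga2 (chr13:114833081-114932100) are neighbours on the minus strand of chromosome 13. Itga3 is at chr11:95044474-95076801 (minus), Itga6 at chr2:71745616-71858416 (plus) and Itga7 at chr10:128933818-128958282 (plus). Itga5 is at chr15:103344286-103366763 (minus), Itga8 at chr2:12106632-12301922 (minus) and Itga9 at chr9:118606690-118901003 (plus), the longest of the 9 at 294 kb.

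Promoter sequence is shown for the most widely found member and for the α subunit most restricted to 1 class, as RefSeq gives them on GRCm38.p6 (250 bases upstream of the annotated start, 5′ to 3′ on the strand of the gene, with GC boxes, GGGCGG on either strand, in capitals). The Itgb1 sequence is chr8:128685404-128685653 (plus strand) and the Itga8 sequence is chr2:12301945-12302194 (minus strand).
Itgb1: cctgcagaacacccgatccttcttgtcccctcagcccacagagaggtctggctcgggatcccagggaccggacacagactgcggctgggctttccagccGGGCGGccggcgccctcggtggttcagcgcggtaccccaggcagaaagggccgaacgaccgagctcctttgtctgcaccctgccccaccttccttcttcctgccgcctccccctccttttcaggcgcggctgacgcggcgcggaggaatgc
Itga8: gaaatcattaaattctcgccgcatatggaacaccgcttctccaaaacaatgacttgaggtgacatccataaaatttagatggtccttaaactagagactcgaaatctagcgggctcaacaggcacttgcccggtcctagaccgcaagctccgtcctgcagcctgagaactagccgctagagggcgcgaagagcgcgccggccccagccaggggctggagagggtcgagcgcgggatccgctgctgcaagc
The Itgb1 window had 1 GC box and 21 CG dinucleotides at 68.0% G and C, and the Itga8 window had no GC box and 18 CG dinucleotides at 56.4%. GGGCGG was in 32.7% of the 32851 RefSeq mouse promoter windows of this length. Neither window held TATAAA (12.4% of windows), CCAAT (33.8%) or the AP-1 motif TGANTCA (6.75%), each searched on both strands. Of the 9 genes, 7 had an entry. The first Itga3 window held 3 GC boxes, that of Itga5 held 2, and those of Itga1, Itga2 and Itga9 held none. The Itga9 window (chr9:118711442-118711691) lies inside the gene as placed above, so the sequence upstream of that gene start was not examined.

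Across finer classes, gated by their own markers, the α subunits differed in where they were highest, some with overlapping ranges, while Itgb1 was found in all. These levels are means over libraries with at least 20 cells and 50000 UMIs of the class (± SD), given without a test. Itgb1 was highest in cells gated as pericytes, the contractile cells that wrap capillaries, at 1665 ± 278 CPM (4 libraries), followed by alveolar fibroblasts at 1065 ± 159. The range of pericytes (1295 to 1963) lay above that of alveolar fibroblasts (851 to 1223). General capillary cells (951 ± 127), arterial cells (923 ± 104), smooth muscle cells (915 ± 288), aerocytes, the thin capillary cells of gas exchange (900 ± 149), and venous cells (882 ± 98) did not differ beyond their spread. AT2 cells were far lower, at 213 ± 98 over all 5 libraries (117 to 351), and the 3 libraries from Itgb1 iKO mice made up the low end of that range.

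Itga1, the collagen receptor subunit of mesenchymal and capillary cells, was highest in pericytes, at 2112 ± 540 CPM (1423 to 2733), with no overlap with arterial cells (862 ± 99.3) or general capillary cells (857 ± 125). Aerocytes held 311 ± 46.3. Itga2, the other collagen receptor subunit, was within one narrow band in aerocytes (93.6 ± 23.3), arterial cells (90.8 ± 23.1), general capillary cells (88.2 ± 14.7) and venous cells (80.2 ± 25.6), whose ranges overlapped. No Itga2 UMI was found in pericytes of the 4 libraries with at least 20 of them. A count of 0 is taken, here and below, to allow up to 3 UMIs, which is 20.4 to 47.1 CPM in these libraries.

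Among the laminin receptor subunits, Itga3 marked aerocytes, at 376 ± 37.7 CPM, and its lowest aerocyte library (327) was above every other class in every library. General capillary cells, the other capillary type, held 71.5 ± 10.6. Itga6 had the reverse pattern in capillaries, with 421 ± 82.7 in arterial cells and 405 ± 61.1 in general capillary cells. In aerocytes Itga6 was 41.1, 42.5 and 41.7 at day 7 (Itgb1 fl/fl LPS, Itgb1 iKO LPS, Itgb1 iKO PBS) and 1.53 and 3.67 at day 21. Itga7, known mainly from muscle, was low everywhere and highest on average in AT2 cells, at 32.4 ± 10.0 (19.2 to 46.7). That range overlapped those of pericytes (16.4 ± 16.6, up to 37.3) and smooth muscle cells (up to 22.0).

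Of the RGD-binding subunits, Itga8 was concentrated in alveolar fibroblasts, at 1537 ± 388 CPM (1001 to 1836), against 131 ± 60.5 in adventitial fibroblasts. Itga5, the fibronectin receptor subunit, varied most between libraries in smooth muscle cells, where it was 274 and 228 in the day 7 LPS libraries, 27.1 in the PBS library (21 cells) and 16.6 in the day 21 Itgb1 fl/fl library. With 1 library per condition these smooth muscle values have no replicate check. Itga9 was highest in lymphatic endothelial cells, a site where it is known to serve lymphatic valves, at 274 ± 8.65 (2 libraries). AT2 cells (170 ± 28.1) and alveolar fibroblasts (148 ± 29.1) came next and overlapped.

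**Figure D1:**
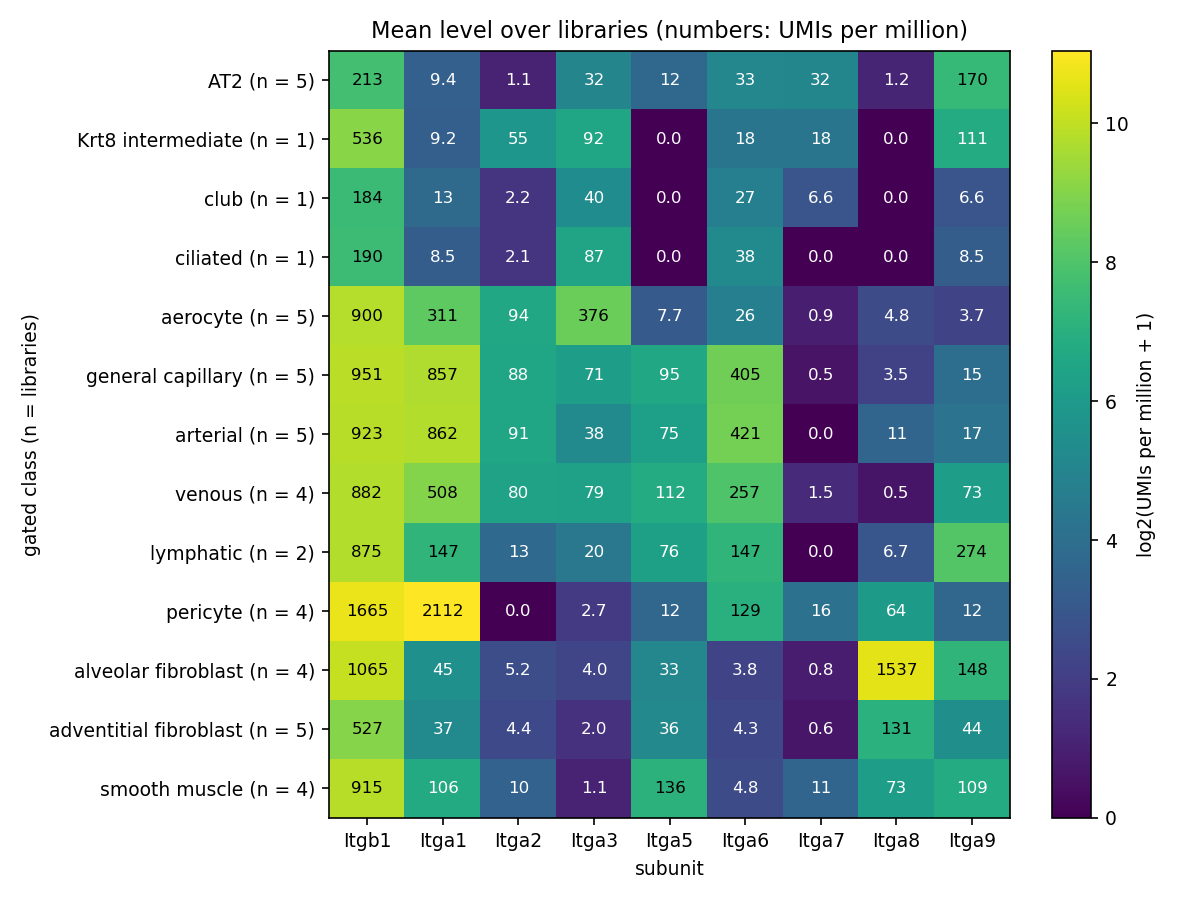
Mean level of Itgb1 and the 8 α subunits (columns) in each gated class (rows, n = libraries), printed in UMIs scaled as CPM and coloured by log2(CPM + 1). Itga3 stands out in aerocytes (376), Itga8 in alveolar fibroblasts (1537) and Itga1 in pericytes (2112), while Itgb1 is 184 or more in every class.

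The make-up of the α subunits differed in the same way when taken as shares of all UMIs of the 8 α genes. Itgav, which also pairs with β1, is not among the 8 and enters neither these shares nor the ratio below. In AT2 cells Itga9 made up a median of 57.7% of them over 5 libraries (51.6 to 67.7%), with 12.8% Itga6 and 10.3% Itga7. Aerocytes had 46.6% Itga3 (42.6 to 48.5%) and 37.6% Itga1, and general capillary cells 54.9% Itga1 and 28.7% Itga6. Pericytes had 89.2% Itga1 (85.2 to 94.6%) and alveolar fibroblasts 85.5% Itga8 (84.0 to 89.9%). The ratio of Itgb1 UMIs to the summed α UMIs ran from 0.503 to 0.719 in general capillary cells and from 0.941 to 1.25 in aerocytes, so that the 2 capillary types did not overlap. In AT2 cells it ran from 0.451 to 1.25, the widest span among the AT2, endothelial and mesenchymal gates. These AT2 values pool Itgb1 fl/fl libraries with Itgb1 iKO libraries, in which Itgb1 is the gene targeted in AT2 cells.

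Itgb1 is the gene that Cre targets, and its level checks the genotype labels. The deleted exons are not given in the sources used here, and 5′ reads upstream of the deleted part would still be counted, so a complete loss of UMIs was not required by the design. Over all gated AT2 cells, Itgb1 was 279 CPM in Itgb1 fl/fl LPS (316 UMIs), 167 in Itgb1 iKO LPS (474 UMIs) and 117 in Itgb1 iKO PBS (30 UMIs) at day 7. At day 21 it was 351 in Itgb1 fl/fl (678 UMIs) and 152 in Itgb1 iKO (1632 UMIs). The log2 ratio of the Itgb1 iKO to the Itgb1 fl/fl library was -0.74 at day 7 (95% exact binomial interval -0.95 to -0.53) and -1.21 at day 21 (-1.34 to -1.08). These intervals cover counting error within 2 libraries and not the spread between mice. Every iKO library was below every fl/fl library, as the labels have it, with a remainder in each.

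With each cell thinned to 2000 UMIs, 47.0% of AT2 cells had an Itgb1 UMI in Itgb1 fl/fl LPS at day 7 (95% exact binomial interval 37.7 to 56.5%), 30.8% in Itgb1 iKO LPS (26.0 to 36.0%) and 23.1% in Itgb1 iKO PBS (8.97 to 43.6%). The shares at day 21 were 53.7% (46.0 to 61.3%) and 27.8% (25.3 to 30.4%). Without thinning they were 88.2, 63.1, 57.7, 94.9 and 67.7% in the order of the libraries. From 0 to 8 cells per library were too shallow and left out. The level of endothelial markers in AT2 cells corresponds to 3.26 to 11.7 Itgb1 CPM carried over from endothelial RNA in the 4 LPS libraries. The Itgb1 iKO level in AT2 cells of these libraries was 152 to 167. The AT2 gate excludes cells with Cdh5, Pecam1 or Col1a2 UMIs, and RNA carried over from other cells is not in this estimate. The part of carried-over RNA in the remaining Itgb1 was not tested.

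At day 21 the 3 Itgb1 fl/fl mice had 347, 321 and 365 CPM of Itgb1 in AT2 cells and the 3 Itgb1 iKO mice 142, 198 and 148. All iKO mice were below all fl/fl mice. The log2 fold change was -1.21 (SE 0.13), with an adjusted p of 4.9e-06 in edgeR's quasi-likelihood test with Benjamini-Hochberg adjustment over 8309 genes. Without the day 21 Itgb1 fl/fl hashtag of mixed Xist and Y-linked UMIs it was -1.20 (edgeR, adjusted p = 9.5e-06). At day 7 the Itgb1 fl/fl mice had 238, 243 and 318 and the Itgb1 iKO mice 207, 163 and 204. The groups did not overlap here either, but the gap was smaller, with a log2 fold change of -0.57 (SE 0.18) that did not pass the test (edgeR, adjusted p = 0.119). The exact two-sided permutation test over mice gave p = 0.10 at both days, the smallest that 3 against 3 allows. The AT2 sums of the day 7 mice came from 18 to 66 cells each.

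At day 7 the cells without a hashtag, which enter no value per mouse, were farther apart than the tagged ones. Itgb1 was 434 CPM in the 17 untagged Itgb1 fl/fl AT2 cells and 259 in the 90 tagged, against 147 in the 194 untagged and 187 in the 154 tagged Itgb1 iKO cells. At day 21 the values were 353 and 350 in Itgb1 fl/fl and 142 and 160 in Itgb1 iKO.

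In endothelial cells, which the Sftpc promoter does not target, Itgb1 was 1031, 1097 and 997 CPM in the day 7 Itgb1 fl/fl LPS mice and 1067, 969 and 1146 in the Itgb1 iKO LPS mice. The genotypes overlapped (log2 fold change 0.0086, SE 0.16; edgeR, adjusted p = 0.987). At day 21 the values were 852, 864 and 949 in Itgb1 fl/fl and 999, 944 and 893 in Itgb1 iKO, again overlapping (log2 fold change 0.10; edgeR, adjusted p = 0.760). Mesenchymal cells of day 7 had 413, 757 and 927 in Itgb1 fl/fl and 652, 687 and 851 in Itgb1 iKO, and those of day 21 had 657, 705 and 530 in Itgb1 fl/fl and 586 and 702 in the 2 Itgb1 iKO mice with at least 10 such cells.

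AT2 and endothelial cells of the same mice and libraries were then fitted together, and the genotype effect in AT2 cells minus that in endothelial cells was tested. For Itgb1 this difference was -1.32 on the log2 scale at day 21 (SE 0.17; edgeR, adjusted p = 1.2e-07 over 8480 genes), the 1 member called of 8 tested where 1.63% of all genes were called (2 members and 10.4% of all genes had an unadjusted p under 0.05). At day 7 it was -0.54 (SE 0.23; edgeR, adjusted p = 0.422). None of 8 members was called there by edgeR, where 1.19% of all genes were called, and 1 had an unadjusted p under 0.05, as did 8.64% of all genes.

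**Figure D2:**
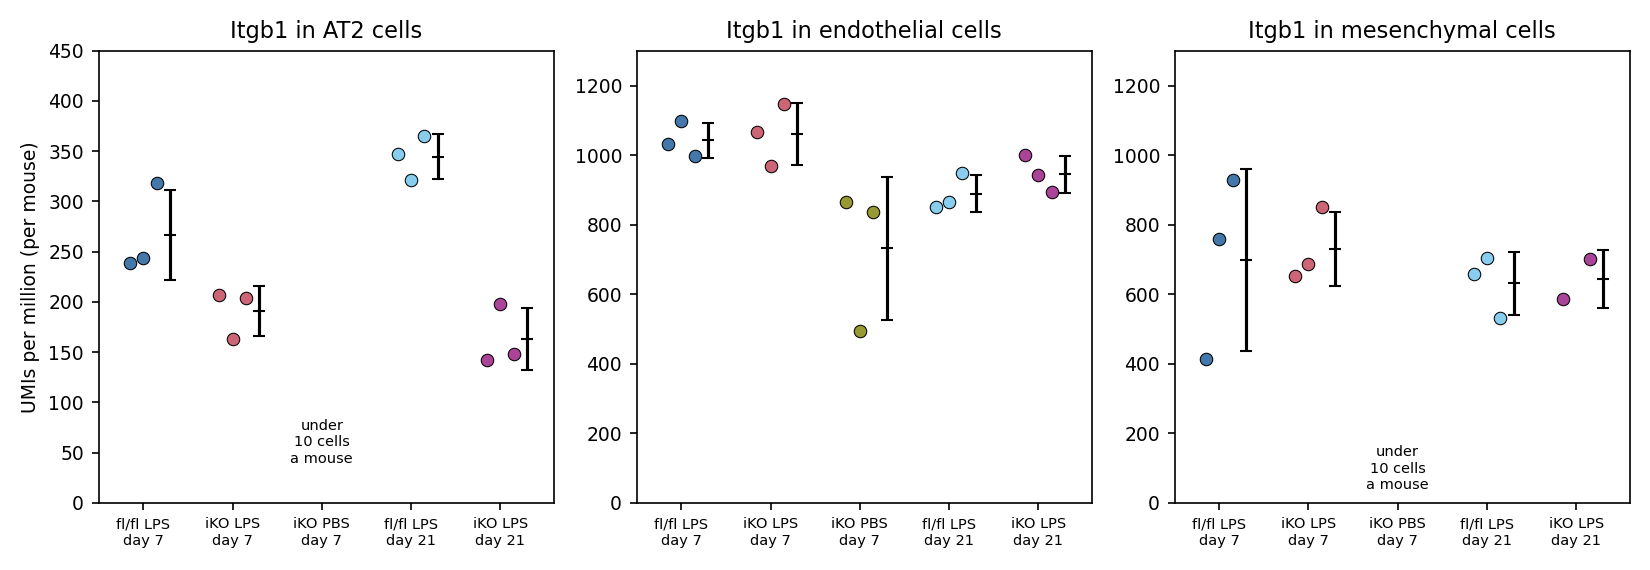
Itgb1 level in CPM for each hashtagged mouse (points) with the group mean ± SD (tick and line beside the points), in AT2, endothelial and mesenchymal cells, the y axis of the AT2 panel ending lower than the others. Itgb1 iKO mice (142 to 207) sit below Itgb1 fl/fl mice (238 to 365) in AT2 cells at both days and overlap them in the other classes.

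Of the α subunits in AT2 cells none was called between the genotypes at either day. At day 7, 5 members were abundant enough to test (Itgb1, Itga3, Itga6, Itga7 and Itga9) and none was called by edgeR, where 2.01% of all genes were called. Itgb1 alone had an unadjusted p under 0.05, as did 12.1% of all genes, and its mice alone did not overlap, where 18.0% of all genes had groups that did not overlap. At day 21, 7 members were tested and 1, Itgb1, was called, where 4.00% of all genes were called. Itga2 and Itga8 stayed out of both fits, and Itga1 and Itga5 out of the day 7 fit, since their counts in AT2 cells were too low. In 5 of the 7 members tested at day 21 the mice of the genotypes did not overlap, 3 being higher and 2 lower in Itgb1 iKO, where 25.4% of all genes had groups that did not overlap.

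The laminin receptor subunits made up the 3 higher ones. Itga3, the epithelial laminin receptor subunit, was 16.2, 30.0 and 30.4 CPM in the day 21 Itgb1 fl/fl mice and 42.9, 37.2 and 41.4 in the Itgb1 iKO mice. Itga6, a subunit that also pairs with β4, was 21.5, 33.0 and 23.5 against 35.8, 36.0 and 47.9. Itga7 was 16.2, 24.0 and 20.7 against 32.8, 30.8 and 32.3. In each gene all 3 Itgb1 iKO mice were above all 3 Itgb1 fl/fl mice. The Itgb1 fl/fl values rest on few cells, 31 to 66 AT2 cells per mouse against 189 to 308 in Itgb1 iKO. The log2 fold changes were 0.51 (SE 0.24) for Itga3, 0.57 (SE 0.25) for Itga6 and 0.55 (SE 0.25) for Itga7, and none passed the test over all genes (edgeR, adjusted p = 0.290, 0.245 and 0.284). Each had an unadjusted p under 0.05, as did 16.6% of all genes tested.

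At day 7 these 3 genes showed no such order. Itga3 was 33.8, 18.3 and 32.7 in Itgb1 fl/fl LPS and 30.5, 26.2 and 31.9 in Itgb1 iKO LPS mice. Itga6 was 37.8, 30.4 and 56.1 against 20.4, 42.0 and 41.9, and Itga7 13.9, 24.3 and 56.1 against 37.3, 38.5 and 26.0. The groups overlapped in all 3, with log2 fold changes of -0.15, -0.24 and 0.25 (SE 0.34 to 0.41) and edgeR adjusted p-values of 0.860 to 0.916. The difference between the days was not tested, since the sort differed.

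Itga9, the main α subunit of AT2 cells by UMIs, overlapped between the genotypes at both days. It was 155, 164 and 220 CPM in Itgb1 fl/fl LPS and 163, 198 and 134 in Itgb1 iKO LPS mice at day 7, and 229, 150 and 180 against 190, 202 and 196 at day 21. The log2 fold change was -0.18 (SE 0.20; edgeR, adjusted p = 0.801) at day 7 and -0.039 (edgeR, adjusted p = 0.922) at day 21. After thinning, 31.6 and 31.1% of AT2 cells had an Itga9 UMI in the day 7 LPS libraries and 39.4 and 30.9% in the day 21 libraries (Itgb1 fl/fl, then Itgb1 iKO).

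Of the collagen receptor subunits, Itga1 was 10.8, 15.01 and 9.68 CPM in day 21 Itgb1 fl/fl AT2 cells and 4.54, 1.74 and 7.63 in Itgb1 iKO. The iKO mice were all lower, at a log2 fold change of -1.24 (SE 0.52) that did not pass the test (edgeR, adjusted p = 0.213). At day 7 Itga1 was 11.9, 12.2 and 4.67 against 13.6, 8.74 and 18.0, overlapping and not tested. Summed endothelial markers in these AT2 cells were 48.4 to 78.0 CPM in day 21 Itgb1 fl/fl mice and 55.8 to 63.2 in Itgb1 iKO mice, all 5 detected in each. Itga1 itself was at 659 or more in every endothelial sum of that day. By the median marker, AT2 cells held 0.363% of the endothelial level in the Itgb1 fl/fl library and 0.377% in the Itgb1 iKO library. The part of endothelial RNA in Itga1 was not tested. Itga2 gave 1 UMI and 2 UMIs in the AT2 cells of the day 7 Itgb1 fl/fl LPS and Itgb1 iKO LPS libraries, 1 UMI in the PBS library and 0 at day 21, where a count of 0 allows 1.55 and 0.28 CPM.

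The RGD receptor subunits were low in AT2 cells. Itga5 was 10.8, 0 and 15.2 in day 21 Itgb1 fl/fl mice and 10.6, 7.55 and 14.9 in Itgb1 iKO mice, which overlapped (log2 fold change 0.032; edgeR, adjusted p = 0.987). At day 7 it was 13.9, 6.09 and 18.7 against 17.0, 14.0 and 3.99. Itga8 was at 0 in the day 7 Itgb1 fl/fl AT2 cells, a count that allows 2.65 CPM in the library, and at 3.39, 3.50 and 3.99 in Itgb1 iKO LPS mice (7 UMIs over the library). At day 21 it was 2.69, 3.00 and 0 against 2.02, 2.90 and 2.54. Summed mesenchymal markers in the same day 7 AT2 cells were 42.1 to 63.6 CPM in Itgb1 fl/fl mice and 75.9 to 111.9 in Itgb1 iKO mice, with at least 3 of 5 detected in each, and their part in the Itga8 UMIs was not tested.

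**Figure D3:**
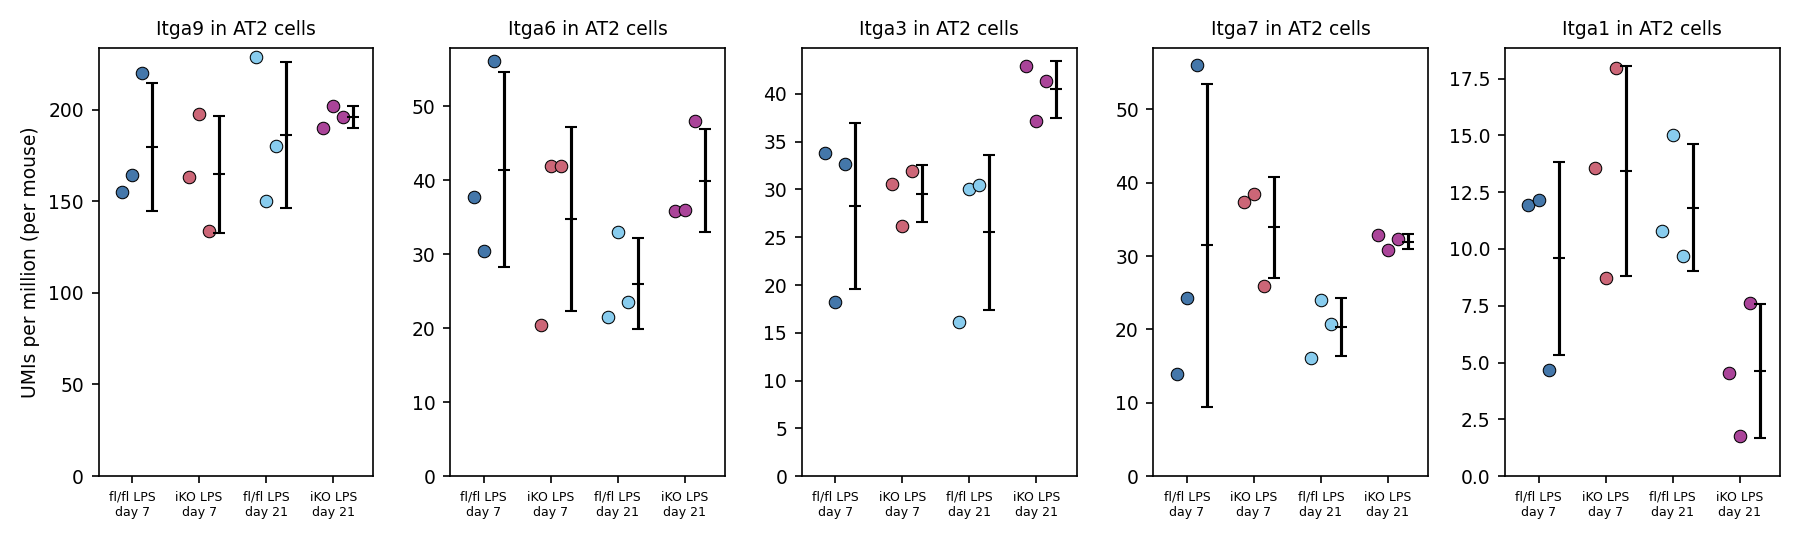
Levels of α subunits in AT2 cells, in CPM, 1 point per hashtagged mouse with the group mean ± SD beside the points, for Itgb1 fl/fl LPS and Itgb1 iKO LPS at days 7 and 21. At day 21 Itga3 (37.2 to 42.9 against 16.2 to 30.4), Itga6 and Itga7 do not overlap, and Itga9 does.

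In endothelial cells the genotype comparison left most members within the spread between mice. At day 7, 8 members were tested and none was called by edgeR, where 2.31% of all genes were called (2 members and 15.9% of all genes had an unadjusted p under 0.05). At day 21, 6 were tested and none was called by edgeR, where 1.30% of all genes were called (2 members and 12.4% of all genes had an unadjusted p under 0.05). Groups that did not overlap were found in 1 of 8 members at day 7 (22.1% of all genes) and in 2 of 6 at day 21 (17.8%).

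Itga3 in endothelial cells was 144, 139 and 111 CPM in day 7 Itgb1 fl/fl LPS mice and 107, 110 and 113 in Itgb1 iKO LPS mice. The highest values were in fl/fl, with overlap at 1 mouse, and the log2 fold change was -0.28 (SE 0.10; edgeR, adjusted p = 0.183). At day 21 it was 106, 158 and 161 in Itgb1 fl/fl and 191, 187 and 226 in Itgb1 iKO, now higher in all iKO mice (log2 fold change 0.53, SE 0.16; edgeR, adjusted p = 0.130). The share of aerocytes among endothelial cells was lower in Itgb1 iKO mice at day 7 and higher at day 21. It was 16.6 to 20.8% in Itgb1 fl/fl and 9.95 to 11.5% in Itgb1 iKO LPS mice at day 7, and 14.6 to 26.6% against 27.1 to 39.6% at day 21. Within aerocytes alone the Itga3 log2 fold change was 0.082 at day 7 and 0.23 at day 21, and within general capillary cells alone -0.19 and 0.0040, in edgeR fits chosen after the data were seen. The part of the aerocyte share in Itga3 was not tested.

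**Figure D4:**
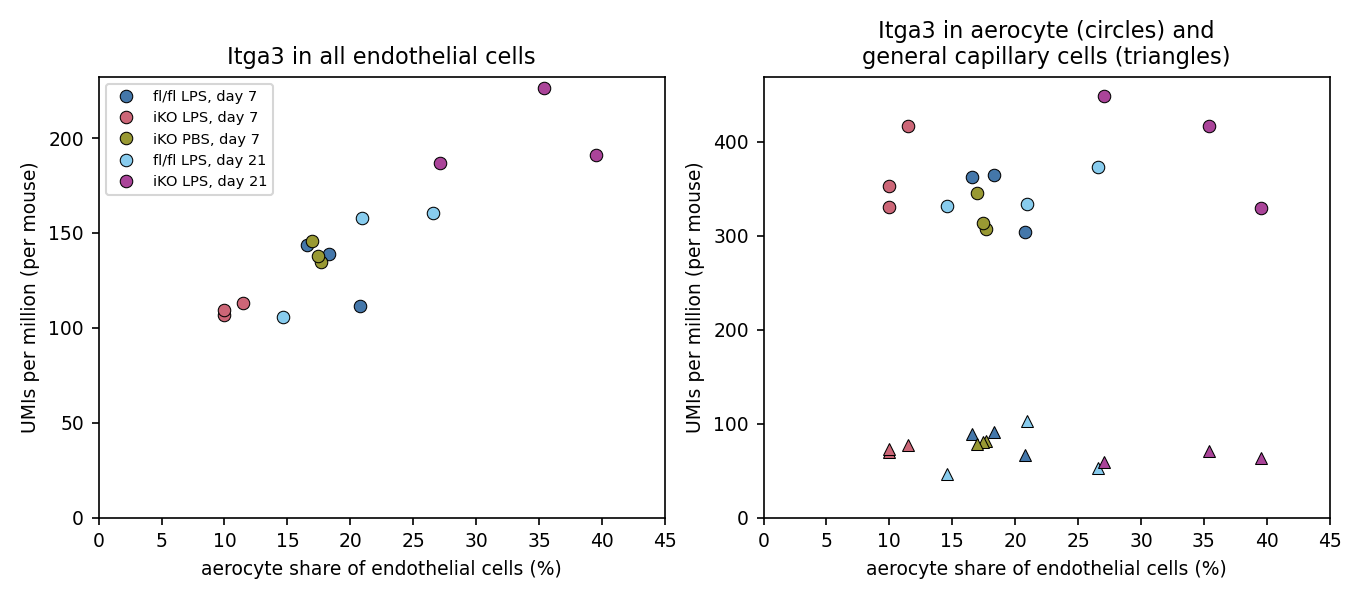
Itga3 level (UMIs scaled as CPM) against the share of endothelial cells gated as aerocytes (%), 1 point per hashtagged mouse coloured by condition, in all endothelial cells (left) and within aerocytes (circles) and general capillary cells (triangles) alone (right). In all endothelial cells the Itgb1 iKO mice of day 21 have the largest aerocyte shares (27.1 to 39.6%) and the highest Itga3 (187 to 226), and within aerocytes the ranges of all conditions overlap.

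Itga2 was 72.4, 85.0 and 83.7 in day 21 Itgb1 fl/fl endothelial cells and 112, 89.9 and 122 in Itgb1 iKO, with no overlap (log2 fold change 0.43, SE 0.18; edgeR, adjusted p = 0.305). At day 7 the values were 89.1, 97.5 and 88.6 against 94.9, 87.0 and 103, overlapping (log2 fold change 0.031; edgeR, adjusted p = 0.916). Summed AT2 markers in the day 21 endothelial cells were 322 to 744 CPM in Itgb1 fl/fl and 1679 to 1945 in Itgb1 iKO mice, 6 of 6 detected in each, and their part in Itga2 and Itga3 was not tested. Itga8, nearly absent from endothelium, was 0.80, 2.15 and 2.01 at day 7 in Itgb1 fl/fl and 3.50, 6.53 and 5.41 in Itgb1 iKO LPS mice. These did not overlap, and the log2 fold change was 1.61 (SE 0.40; edgeR, adjusted p = 0.0636). Summed mesenchymal markers in the same endothelial cells were 201 to 245 CPM in Itgb1 fl/fl and 289 to 325 in Itgb1 iKO LPS mice, with 5 of 5 detected in each, and their part in Itga8 was not tested. Itga1, Itga5, Itga6 and Itga9 overlapped at day 7, at log2 fold changes of 0.024 to 0.14, and at day 21 Itga1, Itga5 and Itga6 overlapped at 0.14, 0.13 and -0.037.

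In mesenchymal cells, a mixture of fibroblasts, pericytes and smooth muscle, no member was called by edgeR at day 7 or at day 21. Of all genes 0.117% and 0.198% were called. Members with an unadjusted p under 0.05 were 0 of 5 tested at day 7, where 5.99% of all genes had one, and 1 of 3 at day 21, where 9.85% had one. Itga8 was 39.7, 130 and 132 CPM in day 7 Itgb1 fl/fl mice and 90.3, 91.6 and 112 in Itgb1 iKO mice, overlapping. Itga1 was 89.3, 52.2 and 213 in day 21 Itgb1 fl/fl and 687 and 205 in Itgb1 iKO, also overlapping, at a log2 fold change of 1.81 (SE 0.62; edgeR, adjusted p = 0.383). Cells gated as pericytes, where Itga1 is highest, were 0 to 13.6% of mesenchymal cells in the former mice and 15.4 to 25.0% in the latter. These shares rest on 3 of 23, 0 of 13 and 3 of 22 cells, and on 3 of 12 and 2 of 13. Their part in Itga1 was not tested. Itga5 was 32.5, 13.1 and 20.6 against 40.4 and 68.5 at day 21, and 39.7, 122 and 213 against 141, 53.9 and 124 at day 7.

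LPS was compared with PBS in Itgb1 iKO mice at day 7, in endothelial cells, since no PBS mouse had 10 AT2 or mesenchymal cells with a hashtag. Of 8 members tested, 5 were called by edgeR, 4 higher and 1 lower with LPS, where 26.9% of all genes were called (14.5% higher and 12.4% lower). An unadjusted p under 0.05 was found for 6 of the 8 and for 39.1% of all genes. PBS mouse 1 had Xist (199 CPM) where the 3 LPS mice and the other 2 PBS mice were mainly Y-positive. The groups did not overlap in 6 of 8, 5 higher and 1 lower, where 42.4% of all genes did not overlap. The median log2 fold change was 0.41 over the members tested and 0.018 over all genes.

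Itga5, the fibronectin receptor subunit, was 102, 87.8 and 104 CPM with LPS and 72.5, 54.8 and 63.0 with PBS. All LPS mice were higher, and the log2 fold change was 0.53 (SE 0.12; edgeR, adjusted p = 0.0075). Itga8 was 3.50, 6.53 and 5.41 with LPS and 0.81, 1.39 and 0.99 with PBS, again with no overlap (log2 fold change 2.17, SE 0.42; edgeR, adjusted p = 0.0033). Summed mesenchymal markers in those endothelial cells were 289 to 325 with LPS and 50.9 to 58.5 with PBS, and their part in Itga8 was not tested.

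Itga2 was 94.9, 87.0 and 103 with LPS and 60.4, 71.2 and 75.6 with PBS, higher in every LPS mouse (log2 fold change 0.37, SE 0.10; edgeR, adjusted p = 0.0147). Itga9 was 17.5, 15.4 and 24.9 against 8.80, 11.9 and 11.1, also higher in every LPS mouse (log2 fold change 0.77, SE 0.20; edgeR, adjusted p = 0.0140). Lymphatic cells, where Itga9 is highest, were 0.231, 0.373 and 2.51% of endothelial cells in the LPS mice, in the same order, and 0.0443 to 0.0982% in the PBS mice. Summed AT2 markers in these cells were 435 to 750 CPM with LPS and 101.5 to 207 with PBS, 6 of 6 detected in each, and the part of either in Itga9 was not tested. Itga3 was the member that fell with LPS, from 135, 138 and 146 to 107, 110 and 113 (log2 fold change -0.44, SE 0.10; edgeR, adjusted p = 0.0061). Aerocytes were 17.0 to 17.7% of endothelial cells with PBS and 9.95 to 11.5% with LPS, and within aerocytes alone the Itga3 log2 fold change was 0.18 (edgeR, adjusted p = 0.461). The part of the aerocyte share in Itga3 was not tested here either. Without the LPS-treated Itgb1 iKO mouse 3, the adjusted p of Itga2 was 0.0561 and that of Itga9 0.0612.

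Itga1 was 757, 653 and 603 with LPS and 676, 648 and 728 with PBS, and Itga6 376, 399 and 383 against 400, 291 and 296. Both overlapped (log2 fold changes -0.12 and 0.13; edgeR, adjusted p = 0.423 and 0.440). Itgb1 was 1067, 969 and 1146 with LPS and 864, 494 and 836 with PBS. All LPS mice were higher, at a log2 fold change of 0.44 (SE 0.17; edgeR, adjusted p = 0.0664). PBS mouse 2 was low, at 0.581 of the mean of the other 2 PBS mice, and it was also low within aerocytes (410), general capillary cells (528), arterial cells (429) and venous cells (405). Its Itga5 and Itga6 levels were 0.809 and 0.836 of that mean, also the lowest of the 3, and in venous cells 0.612 and 0.422. Its Itga1, Itga2 and Itga3 levels in all endothelial cells were 0.923, 1.05 and 0.984 of it, and those of Itga8 and Itga9 1.53 and 1.19. Summed immune markers were 8706 CPM in the endothelial cells of this mouse, 631 and 4298 in the other PBS mice and 1330 to 3501 in the LPS mice, with at least 3 of 5 detected in each, and their part in these levels was not tested. Without this mouse the Itgb1 log2 fold change was 0.23 (edgeR, adjusted p = 0.122), and without PBS mouse 1 it was 0.58 (edgeR, adjusted p = 0.0253).

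The endothelial class is a mixture, and fewer members were called within 1 finer class, where fewer cells were summed. Cells with 1 hashtag were 3755 with LPS and 6374 with PBS in the endothelial class. General capillary cells were 2656 and 4603 of them, and aerocytes 391 and 1108. Far fewer of all genes were also called in aerocytes alone, as counted further below. Why fewer members were called was not tested. In general capillary cells alone 1 member, Itga2, was called (log2 fold change 0.39; edgeR, adjusted p = 0.0216), Itga5 was at 0.34 (adjusted p = 0.0718) and Itga3 at -0.22 (adjusted p = 0.205). Itga9 was 19.5, 13.7 and 9.01 CPM with LPS and 9.47, 14.03 and 13.8 with PBS in these cells, now overlapping (log2 fold change 0.11; edgeR, adjusted p = 0.822). In aerocytes alone 0 were called by edgeR, with Itga5 at 0.89 (adjusted p = 0.329), Itgb1 at 0.55 (adjusted p = 0.0768) and Itga2 at 0.37 (adjusted p = 0.278).

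**Figure D5:**
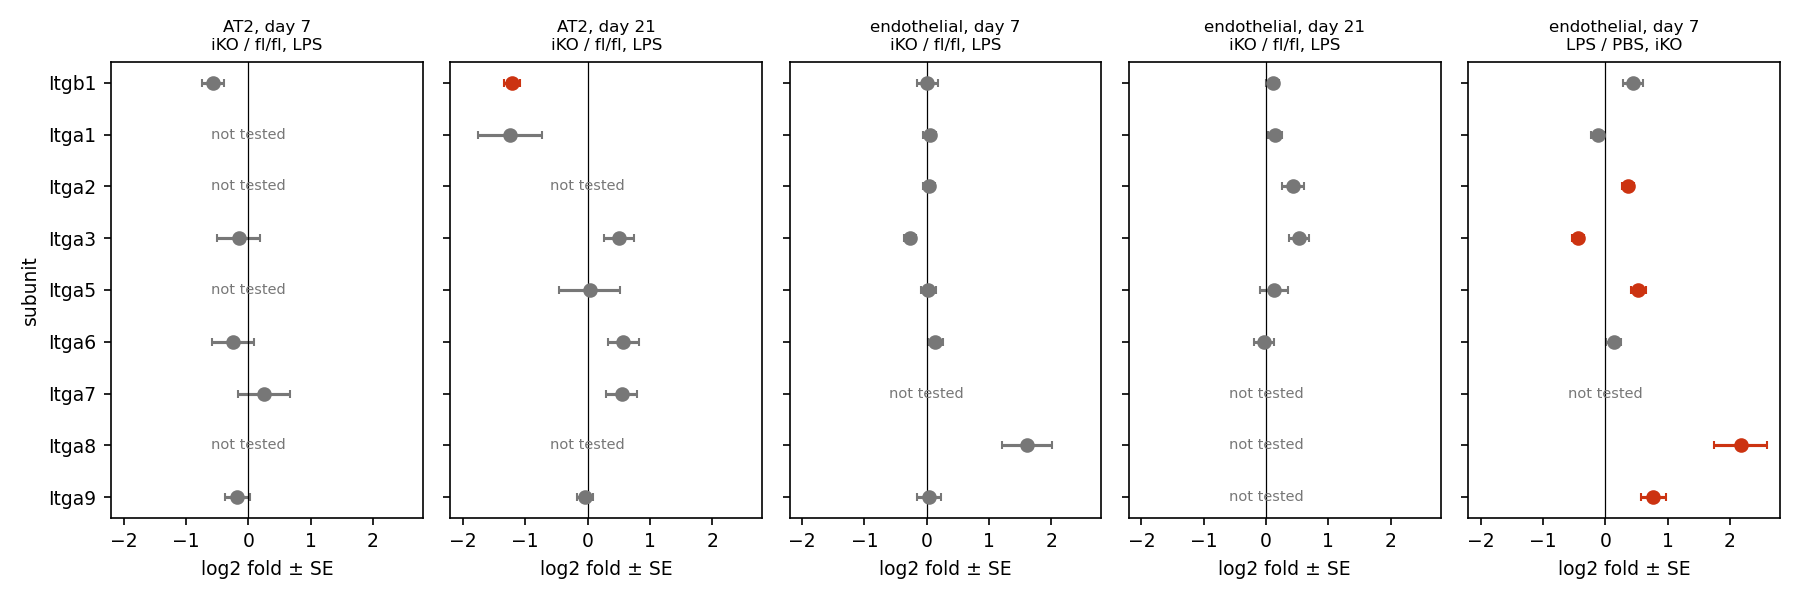
Log2 fold change of each tested member in each comparison (point) with its standard error (line), red where edgeR's adjusted p is under 0.05 and grey elsewhere. Itgb1 in AT2 cells at day 21 (-1.21) is the one red point among the genotype comparisons, and 5 members are red for LPS against PBS.

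Genes that work with β1 integrin were counted in the same fits, from fixed lists of 17 other integrin subunits, 32 cytoplasmic adaptors and tetraspanins, and 30 matrix ligands. In AT2 cells at day 21, 2 of 27 adaptors tested were called by edgeR, both higher in Itgb1 iKO, where 4.00% of all genes were called. Fermt2, which encodes the integrin activator kindlin-2, rose from a mean of 110 to 193 CPM (log2 fold change 0.68, SE 0.14; edgeR, adjusted p = 0.0041). Vcl (vinculin) was 65.3 and 110 (edgeR, adjusted p = 0.101) and Cd9, a tetraspanin, 410 and 362 (edgeR, adjusted p = 0.129). The mice of the genotypes did not overlap in 12 of the 27, 11 being higher, where 25.4% of all genes did not overlap, and the median log2 fold change was 0.12 against 0.011 over all genes.

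None of 2 other integrin subunits tested at day 21 was called in AT2 cells by edgeR. Itgav, the αv subunit that also pairs with β1, was 36.4 in Itgb1 fl/fl and 59.9 in Itgb1 iKO (edgeR, adjusted p = 0.279), and Itgb6, its epithelial partner, 12.5 and 14.7 (edgeR, adjusted p = 0.977). None of 15 ligands was called by edgeR. Among them Col4a3, a chain of the alveolar basement membrane, was 14.4 and 25.4 (edgeR, adjusted p = 0.187), Hspg2 (perlecan) 13.2 and 8.79, Lamb2 36.8 and 28.3, and Npnt, the nephronectin that α8β1 binds, 109 and 102.

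At day 7 no gene of the 3 lists was called in AT2 cells by edgeR (1, 24 and 11 tested), where 2.01% of all genes were called. Cd9 was 336 in Itgb1 fl/fl LPS and 541 in Itgb1 iKO LPS (edgeR, adjusted p = 0.130), and Thbs1, the matrix protein thrombospondin 1, 88.7 and 211 (edgeR, adjusted p = 0.146). The next by p were Sharpin, an inhibitor of integrin activation (31.9 and 17.6), Cd151 (83.0 and 114) and Actn4 (225 and 304) among the adaptors, and Col4a1 (190 and 291), Lamc1 (21.6 and 40.2) and Lama5 (26.6 and 43.3) among the ligands, all with edgeR adjusted p-values over 0.05. The median log2 fold change of the 11 ligands was 0.48 against -0.0072 over all genes. Summed mesenchymal markers in these AT2 sums were 42.1 to 63.6 CPM in Itgb1 fl/fl and 75.9 to 111.9 in Itgb1 iKO mice, and their part in the ligands was not tested. Itgav was 66.1 and 57.2.

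In endothelial cells the genotype comparison called Itgb5 (lower) and Col3a1 (higher) at day 7 and Tnxb (higher) at day 21, and no other gene of the lists, where 2.31% and 1.30% of all genes were called. With LPS against PBS, edgeR called 17 of 22 ligands higher and 0 lower, where 14.5% of all genes were called higher and 12.4% lower, with a median log2 fold change of 1.45 against 0.018 over all genes. Adaptors split into 7 higher and 10 lower of 31. Among other integrin subunits 1 of 6 was higher (Itgb3) and 2 were lower (Itgb5 and Itgb7). Col4a1, a basement membrane collagen chain, rose from 885 to 1712 (log2 fold change 0.86, SE 0.20) and Lims2, an adaptor of the ILK complex, fell from 383 to 131 (log2 fold change -1.64, SE 0.12), both named after their values were seen. Several of these ligands, Col1a1 among them, are also mesenchymal markers, which were higher in the same endothelial sums (289 to 325 CPM with LPS, 50.9 to 58.5 with PBS).

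The genes whose levels over classes were most like each member were listed as a description, from Pearson correlations of log2(CPM + 1) over 46 points (13 classes by library, which share libraries and depth) and 9524 genes. Itgb1 was most like Gnb4 (0.915), Lims1 (0.907) and Gng11 (0.906). Among the collagen receptor subunits, Itga1 was most like Ets1 (0.931), Ccrl2 (0.917) and Dgkh (0.899), and Itga2 like Parvb (0.914), Fkbp1a (0.891) and Upp1 (0.890). Itga3 was most like Smagp (0.874), Tmbim6 (0.855) and Ly6e (0.841). Itga6 was most like St6galnac3 (0.834), Shroom2 (0.821) and Tead4 (0.820), and Itga7 like Klf5 (0.740), Il34 (0.707) and Runx1 (0.706). Itga5 was most like D16Ertd472e (0.776), Gbp3 (0.752) and Adamts9 (0.752), Itga8 like Sod3 (0.904), Mfap4 (0.904) and Wisp2 (0.896), and Itga9 like Itpr1 (0.774), Socs2 (0.768) and Gas6 (0.761). The correlations were highest for Itgb1, Itga1, Itga2 and Itga8, at over 0.9 for the nearest gene.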

How the data were processed

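The authors made the deposited counts with Cell Ranger Count on mm10 (version 3.1 in the submitters' processing notes, which also name Seurat 4.1.0). These are raw UMI counts of genes and hashtag antibodies by barcode. The study's methods describe steps against free RNA, poor cells and doublets that come after this stage. Uncorrected free RNA raises a gene in cells that lack it, and no doublet caller was run here.

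The members and gene lists were chosen with earlier results of these data known. The filter was 700 genes or more per cell, with 0.1 to 15% of UMIs mitochondrial. AT2 cells had Sftpc at 5% of UMIs or more, at least 1 Epcam UMI and no Cdh5, Pecam1 or Col1a2. Endothelial cells had at least 2 Cdh5 and Pecam1 UMIs and no Epcam or Col1a2, and mesenchymal cells at least 2 Col1a2 UMIs and none of the others. Finer classes needed at least 3 UMIs over at least 2 of 5 markers (5 UMIs for epithelial classes). A hashtag was in use at 1% of a library's hashtag counts and called in a cell at 4 times its background. Cells with 1 hashtag (48.6 to 77.2% of cells) were summed per mouse and class, for mice with at least 10 cells.

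Sums were fitted in edgeR 4.0.16 (R 4.3.3) with TMM, filterByExpr, the quasi-likelihood test and Benjamini-Hochberg adjustment over all genes tested (threshold 0.05), all mice of a day in 1 fit. The AT2 minus endothelial difference was fitted with the mouse as a block. The script was tested on simulated data. P-values measure the spread between these mice, whose libraries hold 1 condition each. Exact two-sided permutation tests over mice were run for Itgb1 only, and not for the α subunits. Levels and intervals were computed in Python 3.11.15 (numpy 2.4.6, scipy 1.17.1, pandas 2.3.3, matplotlib 3.10.9) and cover counting error only. No deposited column held per-sample values beyond the cells.

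Named with values were the 9 members, the 4 genes of each list with the smallest p in AT2 cells, genes in a count of 5 or fewer, and the 3 genes most alike each member by correlation among those with at least 50 CPM in a class and not used as markers. One adaptor that this rule selects is not reported here. Alternatives were DESeq2 1.42.0 size factors or its Wald test, no low count filter, only the groups compared, wider and stricter gates, a hashtag at 8 times background, cells over 3 times the median UMIs of their class left out, and each mouse left out. General capillary cells alone and aerocytes alone were added after the data were seen. LPS against PBS could not be fitted in AT2 or mesenchymal cells (0 PBS mice with 10 cells).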

Additional observations from a re-analysis of the deposited data

Results flagged for a closer look

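The genotype difference of Itgb1 itself differed between cell classes at day 21. The Itgb1 iKO minus Itgb1 fl/fl difference in AT2 cells minus that in endothelial cells of the same mice was -1.32 on the log2 scale (SE 0.17; edgeR interaction term, adjusted p = 1.2e-07). All 3 Itgb1 iKO mice were below all 3 Itgb1 fl/fl mice in AT2 cells, and the genotypes overlapped in endothelial cells. AT2 cells are the cells in which Cre was driven.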

How the results depend on the processing

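Depth limited the α subunits in AT2 cells, where day 7 sums rest on 18 to 66 cells per mouse. At day 21 the Itgb1 fl/fl sums rest on 31 to 66 AT2 cells per mouse and the Itgb1 iKO sums on 189 to 308. No paired analysis was possible because the labels give no replicate numbers that tie mice of different conditions. The AT2 minus endothelial fit pairs cell classes within a mouse, not conditions. The Itgb1 difference in AT2 cells stayed below 0 under every alternative run, called at day 21 in each and at day 7 in none. The library ratio of Itgb1 at day 7 was -0.48 as a mean over tagged mice. Itga3 in day 7 endothelial cells passed without Itgb1 fl/fl mouse 3 (edgeR, adjusted p = 0.0341), Itga8 without the low count filter (edgeR, adjusted p = 0.0412), and Itga6 with LPS against PBS without PBS mouse 1 (edgeR, adjusted p = 0.0270). The cause was not tested.

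Members called were 1 without the low count filter and 0 to 1 with a mouse left out in day 7 endothelial cells (0 as reported), and for LPS against PBS 1 in general capillary cells alone, 0 in aerocytes alone (fewer cells) and 3 to 7 with a mouse left out (5 as reported). Counts of all genes called were, for AT2 cells at day 7 (95 as reported), 52 with the DESeq2 Wald test, 154 without the filter, 40 with the hashtag at 8 times background and 40 to 106 with a mouse left out; for endothelial cells at day 7 (269), 443 without the filter, 79 in aerocytes alone and 90 to 232 with a mouse left out; for mesenchymal cells at day 7 (6), 14 with DESeq2, 208 without the filter and 3 to 34 with a mouse left out. At day 21 they were 164 to 327 with a mouse left out in AT2 cells (332), 59 with DESeq2, 279 without the filter, 55 in general capillary cells, 33 in aerocytes and 40 to 146 with a mouse left out in endothelial cells (95), and 14, 44 and 1 to 6 (DESeq2, no filter, a mouse left out) in mesenchymal cells (3). For LPS against PBS (3138) they were 440 in aerocytes and 2319 to 3234 with a mouse left out, and for the AT2 minus endothelial difference 79 with the hashtag at 8 times background and 85 to 114 with a mouse left out at day 7 (136), and 70 to 159 at day 21 (138).

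Differences that changed sign were not called, apart from Itga3 with LPS against PBS, called lower as reported and at 0.18 in aerocytes alone. With general capillary cells alone the log2 fold changes were -0.022 for Itga1 and -0.049 for Itga5 (genotype, day 7), 0.19 for Itga6 (day 21) and -0.0074 for Itga6 (LPS against PBS). With aerocytes alone they were -0.13 for Itgb1, -0.076 for Itga1, -0.10 for Itga2 and 0.082 for Itga3 (day 7), and 0.31 for Itga1 (LPS against PBS). Without the low count filter Itgb1 was -0.0020 in endothelial cells (day 7) and -0.22 in mesenchymal cells (day 21), and Itga9 0.0025 in AT2 cells (day 21). With the hashtag at 8 times background Itga2 was -0.00078 and Itga5 -0.039 in endothelial cells (day 7), and Itga9 0.30 in AT2 cells (day 21). The stricter gate gave -0.028 for Itga9 in endothelial and 0.037 for Itga8 in mesenchymal cells (day 7), and leaving out cells of high UMI count 0.10 for both Itga8 and Itga9 in mesenchymal cells (day 7). With a mouse left out, the log2 fold changes in AT2 cells ran from -0.38 to 0.88 for Itga7 (day 7), -0.35 to 0.89 for Itga5 and -0.13 to 0.12 for Itga9 (day 21). In endothelial cells they ran from -0.046 to 0.069 for Itgb1, -0.054 to 0.12 for Itga1, -0.025 to 0.089 for Itga2, -0.070 to 0.11 for Itga5 and -0.18 to 0.18 for Itga9 (day 7), and from -0.0017 to 0.20 for Itga1 and -0.21 to 0.10 for Itga6 (day 21). In mesenchymal cells they ran from -0.10 to 0.34 for Itgb1, -0.62 to 0.30 for Itga5, -0.30 to 0.14 for Itga8 and -0.31 to 0.074 for Itga9 (day 7), and from -0.26 to 0.13 for Itgb1 (day 21).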

Other observations

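Itgb1 in the 26 AT2 cells of the Itgb1 iKO PBS library was 117 CPM (95% exact Poisson interval 78.8 to 166.8), with 102 in the 9 cells with 1 hashtag and 112 in the 16 with none. In the 20 day 7 Itgb1 fl/fl LPS cells gated as Krt8 intermediate cells, an injury-associated epithelial state, Itgb1 was 536 CPM, Itga3 92.4, Itga2 55.5 and Itga9 111. No other library held 20 such cells. The day 7 Itgb1 iKO LPS library fell just short with 19, so its levels are not given and the genotypes were not compared.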
